A study of Mus musculus with 6 samples.

Results

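The Hox cluster genes are the 39 genes of the mouse Hoxa, Hoxb, Hoxc and Hoxd clusters, chosen by gene symbol alone, out of the 27179 genes of the deposited mRNA-seq count tables. There are 11 Hoxa genes on chromosome 6, 10 Hoxb genes on chromosome 11, 9 Hoxc genes on chromosome 15 and 9 Hoxd genes on chromosome 2. The libraries came from 3 mouse embryonic fibroblast (MEF) lines, with 2 libraries per line from separate RNA preparations. The CPN-/- line lacks the proteins CRY1, CRY2, PER1, PER2, NR1D1 and NR1D2, and both derived lines carry these knockouts too. To make the CPN-/- CRY1 and CPN-/- CRY2 lines, the authors infected CPN-/- cells with a retrovirus that expresses mouse Cry1 or Cry2 and selected a single blasticidin-resistant colony for each line. Values marked below as with CRY1 or with CRY2 come from the 2 libraries of these lines. No cells received a further treatment. Because each CRY-expressing line is 1 colony, an effect of the CRY gene on a Hox gene and a difference that the colony already had cannot be told apart, and the p-values measure the spread between RNA preparations of a line.

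The libraries held 25957409 to 36106949 counts. CPM are counts scaled by library size with TMM factors, and 1 count was worth 0.0277 to 0.0384 CPM. Cry1 mRNA was highest in both CPN-/- CRY1 libraries (165 and 190 CPM, against 48.3 to 125 CPM elsewhere) and Cry2 mRNA in both CPN-/- CRY2 libraries (349 and 351 CPM, against 50.7 to 136 CPM). CPN-/- itself had 125 and 115 CPM on Cry1 and 136 and 129 CPM on Cry2, so these mRNA counts do not check the loss of the proteins. A list of 12 fibroblast or mesenchymal markers summed to 11530 to 18320 CPM, although Thy1 stayed under 1 CPM in all lines and Dcn in CPN-/- and CPN-/- CRY1. All 6 epithelial, 5 endothelial and 3 pluripotency markers were under 1 CPM in every line, as were 4 of 5 blood and 4 of 5 neural markers, with Cd68 (1.62 to 2.08 CPM) and Nes (38.9 to 54.7 CPM) as the others.

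Hox genes encode homeodomain transcription factors that give cells along the body axis their regional identity. Genes of the 4 clusters that descend from a common ancestor form paralog groups, numbered from the end of the cluster that is expressed toward the head (group 1) to the end that is expressed toward the tail (group 13). Fibroblasts in culture are known to keep much of the Hox pattern of the body site they came from, with Polycomb complexes holding silent genes off and trithorax complexes holding active genes on. HOX proteins bind DNA with partners of the PBX, MEIS and PKNOX families.

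The homeobox, the coding stretch shared by all members, is shown for 3 Hox genes that differed strongly between the lines. The 180 bases of each were read from GENCODE M21 transcripts, 5′ to 3′, and capitals mark the 18 bases for the core of the DNA-recognition helix.
Hoxa10: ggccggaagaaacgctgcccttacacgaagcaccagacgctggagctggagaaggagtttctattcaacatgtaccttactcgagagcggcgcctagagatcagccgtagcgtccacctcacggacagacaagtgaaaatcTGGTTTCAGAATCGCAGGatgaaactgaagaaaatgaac
Hoxc6: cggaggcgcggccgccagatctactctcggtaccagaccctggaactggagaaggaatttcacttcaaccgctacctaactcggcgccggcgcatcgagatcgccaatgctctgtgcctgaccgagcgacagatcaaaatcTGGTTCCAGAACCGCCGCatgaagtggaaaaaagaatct
Hoxc13: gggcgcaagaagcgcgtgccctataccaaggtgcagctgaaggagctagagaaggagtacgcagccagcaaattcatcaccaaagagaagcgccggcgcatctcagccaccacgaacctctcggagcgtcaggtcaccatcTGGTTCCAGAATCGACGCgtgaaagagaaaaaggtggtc
Hoxa10 and Hoxc6 shared 62.8% of these bases, Hoxa10 shared 61.1% with Hoxc13, and Hoxc13 shared 51.1% with Hoxc6. The longest identical run in these 3 pairs was 14 bases, between Hoxc6 and Hoxc13. How reads with several matches were counted is not given in the sources used here.

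Hox expression in these cells was low and came mostly from the Hoxa cluster and from Hoxc13. Of the 39 genes, 9 had no count in any library, and 23 had fewer than 3 counts in every library. With detection set at 1 CPM or more in both libraries of a line, CPN-/- expressed 5 Hox genes (among them Hoxa3, Hoxa5, Hoxa10 and Hoxc13), CPN-/- CRY1 expressed 6 (among them Hoxa3, Hoxa5, Hoxa6, Hoxa7 and Hoxc13) and CPN-/- CRY2 expressed 2 (among them Hoxa5). These were 12.8%, 15.4% and 5.13% of the members, where 45.7%, 45.5% and 45.6% of all genes in the tables were detected. Hoxa5 was thus detected in all 3 lines. The number in CPN-/- CRY2 was 4 when replicate 2 of that line was left out. Across the positions, the Hoxa genes of groups 2 to 7 had counts in every line, Hoxa10 had 1 count in CPN-/- CRY2 and 32 or more in each other library, and Hoxa13 had no count.

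**Figure D1:**
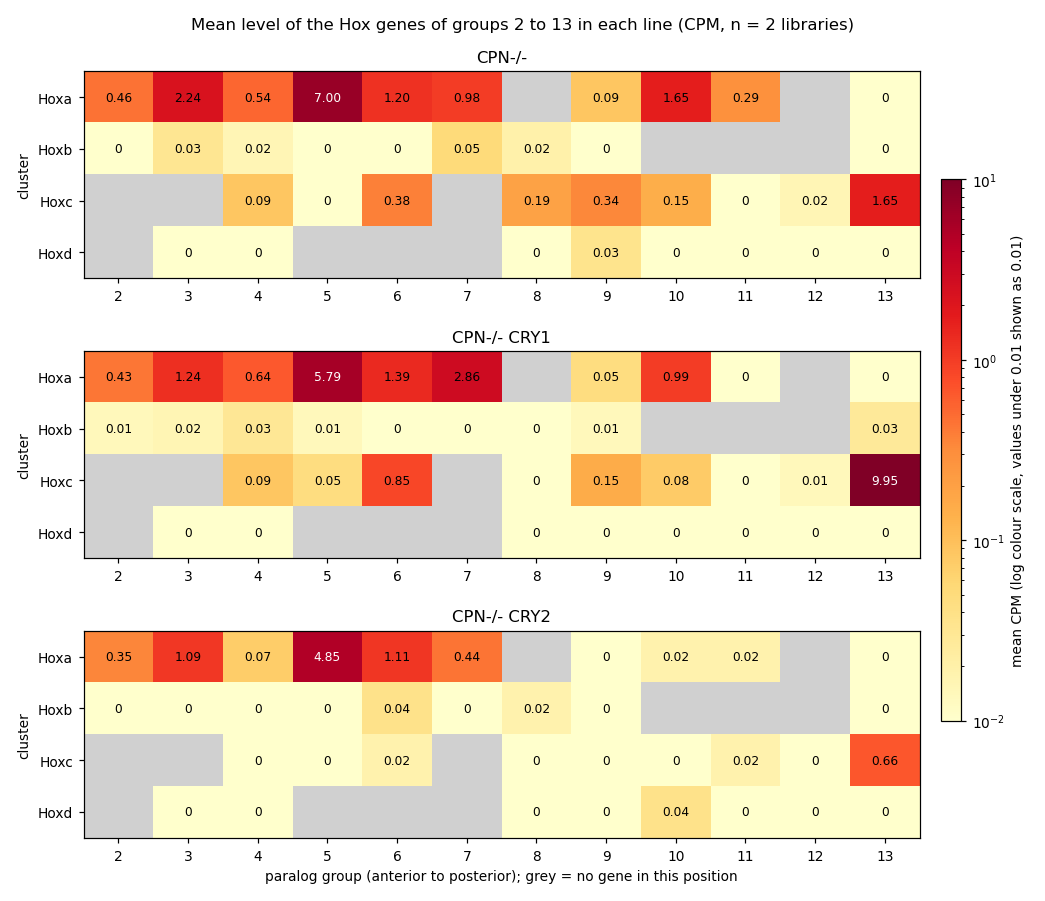
Mean CPM of the 2 libraries for the Hox genes of paralog groups 2 to 13, with the clusters as rows, the groups from anterior to posterior as columns and 1 panel for each line; the colour scale is logarithmic. The Hoxa row and Hoxc13 hold most of the signal, the Hoxb and Hoxd rows stay at or under 0.0506 CPM, and Hoxa10 drops from 1.65 CPM in CPN-/- to 0.0184 CPM in CPN-/- CRY2.

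The Hoxa cluster (chr6:52155367-52260880, mm10) summed to 20.7 and 20.1 CPM for CPN-/-, to 17.9 and 19.4 with CRY1 and to 13.4 and 11.5 with CRY2. The Hoxc cluster (chr15:102921131-103036856) summed to 2.77 and 2.84 CPM for CPN-/-, to 11.9 and 10.5 with CRY1 and to 0.625 and 0.778 with CRY2. Both sums were lowest in the CPN-/- CRY2 libraries, and the Hoxc sum was highest in the CPN-/- CRY1 libraries, most of it from Hoxc13. The 10 Hoxb genes (chr11:96194316-96368254) had 18 counts in all 6 libraries together and never more than 2 in a library. Hoxb1 had none, Hoxb7 had 2 and 1 counts in the CPN-/- libraries and none elsewhere, and the other 8 had 1 to 3 counts in all. The 9 Hoxd genes (chr2:74668225-74765142) had 4 counts in all, from Hoxd9 (1 count in each CPN-/- library) and Hoxd10 (2 counts in replicate 2 of CPN-/- CRY2), and the other 7 had none. A gene with no count in either library of a line was below the limit that 3 counts over both libraries set, which was 0.0518 CPM for CPN-/-, 0.0448 CPM with CRY1 and 0.0553 CPM with CRY2. The limits and the count intervals below cover counting error only. In these bulk samples, fewer expressing cells and less RNA per cell cannot be told apart.

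Among the 29 members too low to test, the highest count in any library was 12, and 6 reached 3 counts in some library. Hoxa11, a gene of the posterior Hoxa cluster that patterns the forearm and the reproductive tract, had 11 and 6 counts in the CPN-/- libraries, none in the CPN-/- CRY1 libraries, and 0 and 1 in the CPN-/- CRY2 libraries. Against the limit of 3 counts over the group, Hoxa11 was at least 6.56-fold higher in CPN-/- than in CPN-/- CRY1. In GENCODE, 800 of the 2287 exon bases of Hoxa11 overlap the antisense gene Hoxa11os. The strand setting of the counting is not given in the sources used here, so reads in that overlap cannot be assigned with certainty. Hoxc8, a thoracic Hox gene, had 6 and 5 counts in CPN-/- and none in the other lines, and was at least 4.24-fold higher in CPN-/- than in CPN-/- CRY1 and at least 3.43-fold higher than in CPN-/- CRY2. Hoxc9 had 7 and 12 counts for CPN-/-, 5 and 5 with CRY1 and none in CPN-/- CRY2, so that it was at least 5.93-fold higher in CPN-/- than in CPN-/- CRY2. Hoxc10 had 7 and 2 counts for CPN-/-, 2 and 3 with CRY1 and none in CPN-/- CRY2. Hoxa9, with 3 and 2 counts for CPN-/-, 1 and 2 with CRY1 and none in CPN-/- CRY2, and Hoxc4, with 3 and 2, 5 and 1, and 0 and 0 counts, were the remaining ones. These 6 genes were named because they reached 3 counts in some library, and Hoxa9, Hoxa11 and Hoxc8 did so only in CPN-/-. Their higher counts in CPN-/- thus follow in part from this choice, and the folds above are descriptions. In each of these 6 genes both CPN-/- libraries held counts. The CPN-/- CRY2 libraries held none except 1 count of Hoxa11. Hoxc5, Hoxc11 and Hoxc12, the other untested members of the Hoxc cluster, had at most 2 counts in any library.

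Levels of different genes were compared as CPM per kilobase of the longest coding transcript. For the genes named here, the order in CPN-/- began with Hoxa5 (3.73), Hoxa6 (1.37) and Hoxa3 (0.864), with no overlap between the libraries of neighbours in this order. Hoxc13 (0.669) and Hoxa10 (0.645) followed, and their libraries overlapped. In CPN-/- CRY1 the order began with Hoxc13 (4.04), Hoxa5 (3.08), Hoxa6 (1.59) and Hoxa7 (1.42), of which only Hoxa6 and Hoxa7 overlapped. In CPN-/- CRY2 it began with Hoxa5 (2.58), Hoxa6 (1.27) and Hoxa3 (0.420). Hoxc6 (0.0117) and Hoxa10 (0.00716) were the lowest of the tested members there. They had 1 count each and overlapped, so their order is not resolved. Hoxa5 stood above Hoxa6 in all 3 lines, while other members changed places, among them Hoxc13, Hoxa7, Hoxa10 and Hoxc6. In CPN-/- CRY1, Hoxc6 (0.538) stood above Hoxa3 (0.477) without overlap. Even the highest member stood low in the transcriptome: Hoxa5 in CPN-/- was above 28.5% and Hoxc13 in CPN-/- CRY1 above 28.9% of the 12478 tested genes with a known length, whose median was 10.1 CPM per kilobase in CPN-/- and 10.4 in CPN-/- CRY1.

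Tests covered the 14069 genes with enough counts, and 10 of the 39 Hox genes were among them, including Hoxa2 to Hoxa7, Hoxa10, Hoxc6 and Hoxc13. A gene is called higher or lower where its p from the quasi-likelihood test of edgeR, after Benjamini-Hochberg adjustment over all tested genes, was under 0.05. Hoxa4, Hoxa10 and Hoxc6 were tested only because of their counts in CPN-/- or CPN-/- CRY1. No CPN-/- CRY2 library of these 3 genes reached the filter's minimum. Their calls against CPN-/- CRY2 are therefore descriptions, as are the numbers called, the medians and the numbers without overlap below. Where CPN-/- CRY2 is compared, these are also given without the 3 genes (a choice made after their values were seen). Hoxa2 and Hoxa7 had only 1 CPN-/- CRY2 library at that minimum and also passed through the other lines. Leaving out the 3 genes thus does not fully remove this effect of the filter. In all, 6 members were called in at least 1 comparison, and Hoxa2, Hoxa5 and Hoxa6 were called in none.

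Hoxc13 (chr15:102921131-102928814, forward strand, 2 exons), the most posterior gene of its cluster and a regulator of hair and nail development, had the largest increase of the tested members in CPN-/- CRY1 against CPN-/-. It had 51 and 44 counts in the 2 CPN-/- libraries, 384 and 286 with CRY1 and 17 and 19 with CRY2. Mean levels (± SD, n = 2) were 1.65 ± 0.0603 CPM for CPN-/-, 9.95 ± 0.953 CPM with CRY1 and 0.664 ± 0.0562 CPM with CRY2. The lines did not overlap, with CPN-/- CRY1 high and CPN-/- CRY2 low. Hoxc13 was 6.05-fold higher in CPN-/- CRY1 than in CPN-/- (log2 fold change 2.60, standard error 0.16, adjusted p = 2.7e-04, edgeR). In CPN-/- CRY2 it fell by 1.30 (log2) against CPN-/- (standard error 0.23, adjusted p = 0.019 in the same edgeR test). The difference between the CRY-expressing lines was 3.90 (standard error 0.19, adjusted p = 1.6e-04, edgeR). The CPN-/- CRY2 call did not pass in 5 of 18 alternatives, among them without replicate 1 of CPN-/- CRY1 (adjusted p = 0.051 in edgeR) and without replicate 1 or 2 of CPN-/- CRY2 (0.17 and 0.13), while the other Hoxc13 calls passed under every alternative that was run.

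Hoxa7 (chr6:52215623-52218573, reverse strand, 2 exons), which helps to pattern the thoracic region, had 32 and 25 counts in the 2 CPN-/- libraries, 94 and 96 with CRY1 and 15 and 9 with CRY2. Mean levels (± SD, n = 2) were 0.983 ± 0.0329 CPM for CPN-/-, 2.86 ± 0.363 CPM with CRY1 and 0.442 ± 0.154 CPM with CRY2. The libraries of the 3 lines again did not overlap, in the same order as for Hoxc13. Hoxa7 was 2.89-fold higher in CPN-/- CRY1 than in CPN-/- (log2 fold change 1.53, standard error 0.24, adjusted p = 0.0060, edgeR). Without replicate 2 of CPN-/- CRY1 this value was 1.40 and did not pass (adjusted p = 0.063, edgeR). The difference of −1.15 between CPN-/- CRY2 and CPN-/- did not pass (standard error 0.32, adjusted p = 0.096, edgeR), although it did without replicate 1 or 2 of CPN-/- (0.033 and 0.041). Between the CRY-expressing lines Hoxa7 differed by 2.67 (standard error 0.28, adjusted p = 0.0015, edgeR), a call that passed under every alternative run. In GENCODE, 586 of the 2876 exon bases of Hoxa7 overlap the antisense gene Hoxaas3, and the strand setting of the counting is not given in the sources used here, so reads in that overlap cannot be assigned to 1 of these 2 genes with certainty. The count of Hoxaas3 was 4 and 3 for CPN-/-, 4 and 5 with CRY1 and 2 and 1 with CRY2.

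Hoxa10 (chr6:52231197-52240854, reverse strand, 2 exons), a posterior gene known for its role in the uterus and the lumbar skeleton, had 54 and 42 counts in the 2 CPN-/- libraries, 34 and 32 with CRY1 and 1 and 0 with CRY2. Mean levels (± SD, n = 2) were 1.65 ± 0.0607 CPM for CPN-/- and 0.989 ± 0.0687 for CPN-/- CRY1, while the CPN-/- CRY2 libraries had 0.0367 and 0 CPM. Here CPN-/- was high and CPN-/- CRY2 was at or near 0. The counts of both libraries gave a ratio of 89.9 between CPN-/- and CPN-/- CRY2 (exact 95% interval 15.8 to 3588) and of 53.4 between CPN-/- CRY1 and CPN-/- CRY2 (9.26 to 2141). Both differences were called (adjusted p = 0.0014 and 0.0018, edgeR) and passed under every alternative that tested the gene. The difference of −0.75 between CPN-/- CRY1 and CPN-/- did not pass (standard error 0.25, adjusted p = 0.067, edgeR), but did without replicate 2 of CPN-/- (0.043).

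Hoxc6 (chr15:102998226-103011882, forward strand, 2 exons), which is expressed in the anterior thorax of the embryo, had 13 and 9 counts in the 2 CPN-/- libraries, 31 and 26 with CRY1 and 0 and 1 with CRY2. The 3 lines did not overlap, and their order was that of Hoxc13 and Hoxa7. The ratio of counts was 46.1 between CPN-/- CRY1 and CPN-/- CRY2 (exact 95% interval 7.95 to 1854). This difference was called under every alternative that tested the gene (adjusted p = 0.0026, edgeR). The alternative with a minimum of 10 counts in every library left Hoxc6 out. Hoxc6 passed the main filter only through CPN-/- and CPN-/- CRY1, so its calls against CPN-/- CRY2 are a description. Between CPN-/- and CPN-/- CRY2 the ratio was 20.6 (3.33 to 850), with an adjusted p of 0.025 in edgeR. This call did not pass in 7 of 17 alternatives, among them DESeq2's Wald test (adjusted p = 0.057) and each fit without a library of CPN-/- CRY1 or CPN-/- CRY2 (0.067 to 0.16). Hoxc6 was 2.23-fold higher in CPN-/- CRY1 than in CPN-/- (log2 fold change 1.16, standard error 0.33, adjusted p = 0.046, edgeR). That call did not pass in 10 of 17 alternatives, among them DESeq2's Wald test (adjusted p = 0.19) and the fits without replicate 2 of CPN-/- (0.061), without replicate 1 or 2 of CPN-/- CRY1 (0.19 and 0.19) and without replicate 1 or 2 of CPN-/- CRY2 (0.064 and 0.066).

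Hoxa3 and Hoxa4 were called by narrow margins. Hoxa3 (chr6:52169059-52213067), needed for the thymus and parathyroid glands, had 68 and 61 counts in the 2 CPN-/- libraries, 46 and 37 with CRY1 and 37 and 22 with CRY2. Both CRY-expressing lines lay below CPN-/-, and they overlapped with each other. Against CPN-/-, Hoxa3 fell by 0.85 (log2) with CRY1 (standard error 0.25, adjusted p = 0.049, edgeR), a call that did not pass in 11 of 18 alternatives. Its adjusted p was 0.20 and 0.24 without replicate 1 or 2 of CPN-/- CRY1 and 0.055 and 0.054 without replicate 1 or 2 of CPN-/- CRY2. Its difference of −1.04 in CPN-/- CRY2 did not pass (standard error 0.26, adjusted p = 0.073, edgeR), although it did without replicate 1 or 2 of CPN-/- (0.0029 and 0.018), without a filter and with the length trend removed (0.041). The exons of Hoxa3 overlap those of several antisense genes and of Gm28308 on the same strand. Hoxa4, a gene of cervical patterning, had 17 and 14 counts in the 2 CPN-/- libraries, 16 and 26 with CRY1 and 4 and 0 with CRY2. CPN-/- and CPN-/- CRY1 overlapped, and CPN-/- CRY2 was below both. The ratio of counts between CPN-/- CRY1 and CPN-/- CRY2 was 8.50 (exact 95% interval 3.08 to 32.6, adjusted p = 0.044 in edgeR). The call did not pass in 6 of 17 alternatives, among them those in which either library of CPN-/- CRY1 (adjusted p = 0.092 and 0.22) or of CPN-/- CRY2 (0.065 and 0.20) was left out. Between CPN-/- and CPN-/- CRY2 the ratio was 7.26 (2.57 to 28.3), and the test did not pass (adjusted p = 0.11, edgeR) except without replicate 1 or 2 of CPN-/- (0.0064 and 0.012) and with DESeq2's Wald test (0.047).

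**Figure D2:**
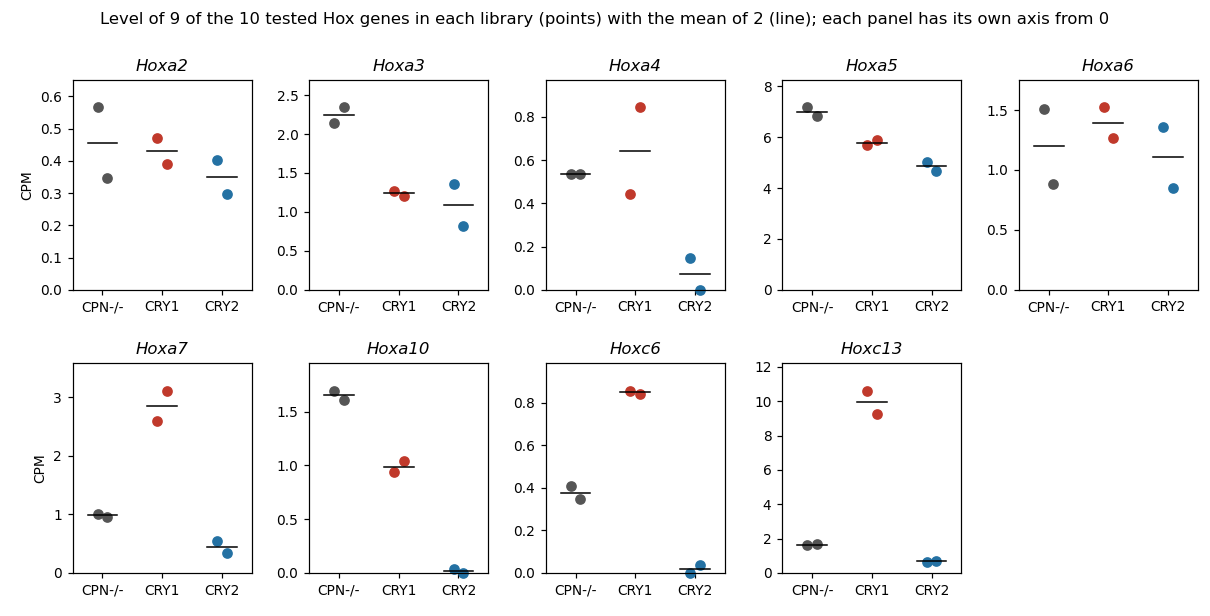
CPM of each library (points, 2 per line) with the mean of each line (horizontal line) for 9 of the 10 tested Hox genes; every panel has its own linear axis from 0. Hoxa7, Hoxc6 and Hoxc13 were highest in both CPN-/- CRY1 libraries, Hoxa4 and Hoxa10 were at 0.147 CPM or less in both CPN-/- CRY2 libraries, and Hoxa2 and Hoxa6 overlapped between all lines.

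Hoxa5, Hoxa6 and Hoxa2 did not pass in any comparison. Hoxa5, which acts in lung and cervical development, was the highest of these with 228 and 178 counts in the 2 CPN-/- libraries, 205 and 182 with CRY1 and 137 and 126 with CRY2. Its libraries followed the order CPN-/-, CPN-/- CRY1, CPN-/- CRY2 without overlap. The log2 fold changes of Hoxa5 against CPN-/- were −0.28 in CPN-/- CRY1 (95% interval −0.58 to 0.032) and −0.53 in CPN-/- CRY2 (−0.85 to −0.21, adjusted p = 0.070, edgeR). The latter passed when replicate 1 or 2 of CPN-/- was left out (adjusted p = 0.012 and 0.0095, edgeR). Hoxa6, the neighbour of Hoxa7, had 48 and 23, 55 and 39, and 37 and 23 counts, and its 95% intervals against CPN-/- were −0.58 to 0.99 in CPN-/- CRY1 and −0.97 to 0.70 in CPN-/- CRY2. Hoxa2, which patterns the hyoid arch, had 8 to 18 counts per library, so that its intervals (−0.98 to 0.78 and −1.36 to 0.56) leave room for changes of either sign.

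The comparison of CPN-/- CRY1 with CPN-/- sets 1 colony that expresses CRY1 against its parental line, both without the other repressors. It called 4 tested members, of which Hoxa7, Hoxc6 and Hoxc13 were higher and Hoxa3 was lower, where 24.3% of all tested genes were called (11.2% higher and 13.1% lower). The median log2 fold change of the 10 tested members was 0.050, against −0.0073 over all tested genes, and the median size of the change was 0.51 against 0.30. Both libraries of CPN-/- CRY1 lay above both of CPN-/- for 3 members and below them for 4, where 32.9% and 34% of all tested genes did so. The number called was smaller when any library of a CRY-expressing line was left out.

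The comparison of CPN-/- CRY2 with CPN-/- called 3 members, Hoxa10, Hoxc6 and Hoxc13, all lower, where 6.66% of all tested genes were called and 4.08% were lower. The 10 tested members had log2 fold changes below 0, with a median of −1.09 against −0.0076 over all tested genes. Both CPN-/- CRY2 libraries lay below both CPN-/- libraries for 8 of them, against 27.2% of all tested genes. Without Hoxa4, Hoxa10 and Hoxc6, the median of the other 7 was −0.53, 5 of them lay below without overlap and 1 was called. The number called depended on the CPN-/- libraries: it was 8 without replicate 1 and 7 without replicate 2 of CPN-/-. Leaving out replicate 1 of CPN-/- CRY1, or either library of CPN-/- CRY2, left 1 call. The log2 difference between both CPN-/- libraries varied with transcript length over 12478 genes, with a Spearman correlation of 0.72 (a description across genes, which are not replicates), against −0.21 in CPN-/- CRY1 and 0.30 in CPN-/- CRY2. With these length trends removed, 4 members were called against CPN-/- in CPN-/- CRY1 and 4 in CPN-/- CRY2, where Hoxa3 was added (adjusted p = 0.041, edgeR).

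The direct comparison of CPN-/- CRY1 with CPN-/- CRY2 called 5 members, Hoxa4, Hoxa7, Hoxa10, Hoxc6 and Hoxc13, all higher in CPN-/- CRY1, where 16.3% of all tested genes were called (7.72% higher and 8.57% lower). The median over the 10 tested members was 1.51, against −0.0046 over all tested genes, and both CPN-/- CRY1 libraries lay above both CPN-/- CRY2 libraries for 7 members, against 36.4% of all tested genes. Without Hoxa4, Hoxa10 and Hoxc6, the median of the other 7 was 0.30, 4 of them lay above without overlap and 2 were called. These were Hoxc13 and Hoxa7, of which Hoxa7 had only 1 CPN-/- CRY2 library at the filter's minimum. The comparisons share libraries, so their calls are not independent of each other. The number called was smaller when any library of these lines was left out.

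**Figure D3:**
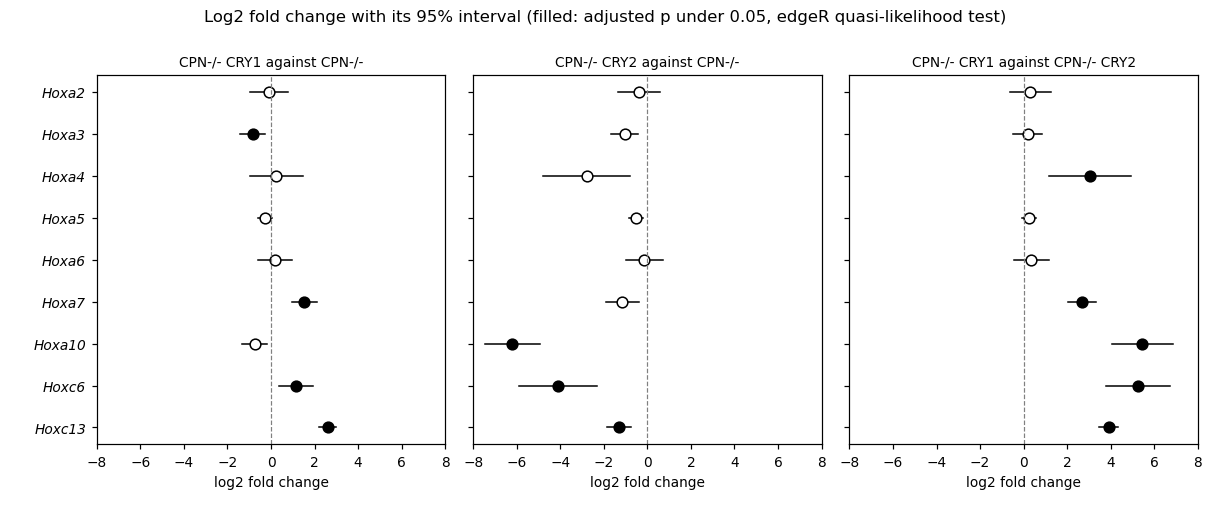
Log2 fold change (points) with its 95% interval (lines) for 9 of the 10 tested Hox genes in the 3 comparisons; filled points have an adjusted p under 0.05. Hoxc13 changed by 2.60 in CPN-/- CRY1 and by −1.30 in CPN-/- CRY2, and the intervals of Hoxa10 and Hoxc6 are wide where CPN-/- CRY2 had 1 count in both libraries together.

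Promoter sequences of 250 bases before a transcription start were given by RefSeq for 22 of the 39 Hox genes (24 starts) and for 6 of the 10 tested ones. CRY proteins repress transcription at E-boxes, so the windows were searched on both strands for the E-box CACGTG, its variant CACGTT and the half-site AGGTCA that ROR and NR1D receptors bind. None of the 7 windows of the tested Hox genes (Hoxa2, Hoxa3, Hoxa5, Hoxa6, Hoxa7 and both starts of Hoxa10) held any of these letters. Hoxc13, Hoxc6 and Hoxa4 had no window, and bases outside the windows, such as introns, were not searched. Over all 32851 windows, 6.02% held CACGTG, 3.85% held CACGTT and 14% held AGGTCA, and 4, 0 and 6 of the 24 Hox windows did. The windows of Hoxa5, which was not called, and of Hoxa10, which was nearly absent in CPN-/- CRY2, are shown 5′ to 3′ on the reverse strand of GRCm38.p6, with each CG dinucleotide in capitals.
Hoxa5, chr6:52204588-52204837: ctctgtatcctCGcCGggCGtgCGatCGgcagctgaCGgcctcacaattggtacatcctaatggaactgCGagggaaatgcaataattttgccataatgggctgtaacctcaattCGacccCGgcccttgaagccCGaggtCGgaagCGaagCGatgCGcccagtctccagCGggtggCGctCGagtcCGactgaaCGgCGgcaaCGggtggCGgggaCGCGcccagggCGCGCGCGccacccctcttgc
Hoxa10, chr6:52234940-52235189: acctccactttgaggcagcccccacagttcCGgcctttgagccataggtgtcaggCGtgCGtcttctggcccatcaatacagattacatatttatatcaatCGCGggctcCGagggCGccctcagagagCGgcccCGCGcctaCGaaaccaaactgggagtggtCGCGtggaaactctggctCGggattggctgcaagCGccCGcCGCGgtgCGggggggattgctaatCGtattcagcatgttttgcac
Hoxa10, chr6:52240855-52241104: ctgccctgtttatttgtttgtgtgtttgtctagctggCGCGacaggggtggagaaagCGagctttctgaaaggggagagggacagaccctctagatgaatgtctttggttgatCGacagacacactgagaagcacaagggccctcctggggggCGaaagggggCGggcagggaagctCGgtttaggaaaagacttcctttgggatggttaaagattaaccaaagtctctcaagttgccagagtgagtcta
They hold 28, 20 and 7 CG dinucleotides. The ratio of observed to expected CG was 1.11 for Hoxa5 and 0.913 and 0.458 for the 2 Hoxa10 starts, against a median of 0.721 over the Hox windows and 0.373 over all windows.

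The surroundings of the clusters were examined because the genes of chromosome 15, where the Hoxc cluster lies, were shifted together in CPN-/- CRY1. Such a shift was not particular to this chromosome. In CPN-/- CRY1 against CPN-/-, the median log2 fold change was −0.28 on chromosome 3, 0.27 on chromosome 16 and 0.31 on chromosome 19. The median log2 fold change of the 528 tested genes of chromosome 15 was −0.36 in CPN-/- CRY1 against CPN-/-, 0.048 in CPN-/- CRY2 against CPN-/- and −0.43 between the CRY-expressing lines. Of the 30 other tested genes within 1 Mb of the Hoxc cluster, 9 were lower and 0 were higher in CPN-/- CRY1 than in CPN-/- by the edgeR test. Their median was −0.24. Of the 528 genes of the whole chromosome, 226 were lower and 15 higher, where 13.1% and 11.2% of all tested genes were. The genes beside the cluster thus did not stand out as lower within their chromosome. Hoxc6 and Hoxc13 were higher in that line, against the direction of their chromosome. With the median of each chromosome removed, Hoxc13 was higher by 2.96 (adjusted p = 2.0e-04, edgeR) and Hoxc6 by 1.52 (adjusted p = 0.022, edgeR). For the 629 tested genes of chromosome 6 the medians were −0.13, −0.012 and −0.13. The nearest tested genes beside the clusters were Skap2 and Hibadh for Hoxa, Atp5g1 and Skap1 for Hoxb, Calcoco1 and Smug1 for Hoxc, and Lnpk and Mtx2 for Hoxd. Of these, Lnpk was called higher in CPN-/- CRY1 than in CPN-/- (0.66, adjusted p = 0.011, edgeR) and Smug1 lower in CPN-/- CRY1 against CPN-/- CRY2 (−0.52, adjusted p = 0.023, edgeR, but −0.10 and 0.64 with chromosome medians removed). Both calls were lost when either library of CPN-/- CRY1 was left out (adjusted p 0.085 and 0.11 for Lnpk, 0.21 and 0.16 for Smug1), and that of Smug1 also without either library of CPN-/- CRY2 (0.21 and 0.13). The others did not pass in any comparison.

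**Figure D4:**
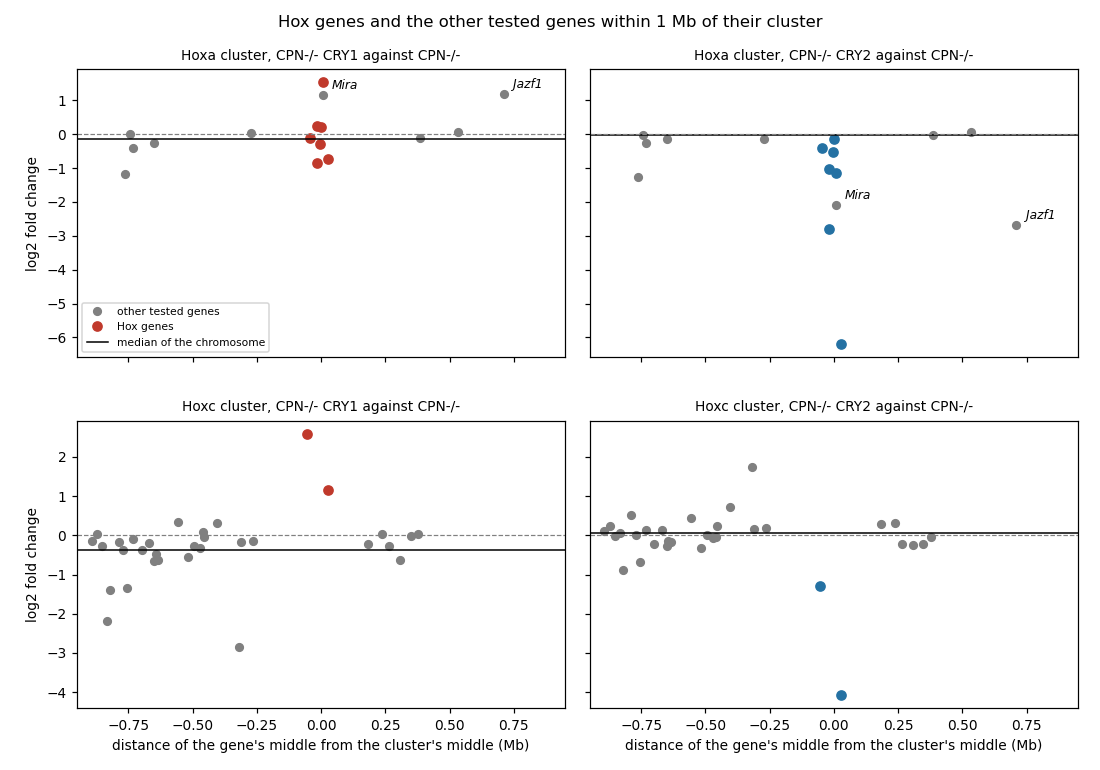
Log2 fold change of 9 tested Hox genes (coloured) and of the other tested genes within 1 Mb (grey) by distance from the middle of the Hoxa and Hoxc clusters, with the median of the chromosome as a solid line. Hoxc6 and Hoxc13 stand above their chromosome's median of −0.36 in CPN-/- CRY1, and Mira and Jazf1 are the grey points above 1 in CPN-/- CRY1 beside the Hoxa cluster. Nfe2l3, another grey point beside that cluster, lies at −1.17 in the same comparison.

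The files list 14 other genes between the first and last Hox gene of a cluster, of which 8 had no count and 1 could be tested. Mira, a long non-coding RNA gene beside Hoxa7, had 41 and 46 counts in the 2 CPN-/- libraries, 126 and 101 with CRY1 and 7 and 12 with CRY2. Its libraries had the same order as those of Hoxa7 and did not overlap between lines. Replicate 1 of CPN-/- CRY2 was under the filter's minimum for Mira, which also passed through the other lines. The call of Mira in CPN-/- CRY2 is therefore a description. Mira was higher with CRY1 by 1.16 (standard error 0.23, adjusted p = 0.014) and fell by 2.10 in CPN-/- CRY2 (standard error 0.34, adjusted p = 0.014) against CPN-/- in the edgeR test. The first call was lost without replicate 1 or 2 of CPN-/- CRY1 (adjusted p = 0.11 and 0.092) and the other without replicate 1 or 2 of CPN-/- CRY2 (0.13 and 0.067). Hotair, the non-coding gene within the Hoxc cluster, had 4 and 2 counts in CPN-/- CRY1 and none elsewhere, and Hoxa11os, antisense to Hoxa11, had 5 and 4 counts in CPN-/- and at most 1 elsewhere. Outside the Hoxa cluster, 8 genes within 1 Mb were tested. With CRY1, 1 of them (Jazf1) was called higher than in CPN-/- and 2 were called lower. The lower ones were Nfe2l3 (log2 fold change −1.17, adjusted p = 0.049, edgeR) and Cbx3 (−0.40, adjusted p = 0.045, edgeR). With CRY2, Jazf1 was the only 1 of the 8 called against CPN-/-, and it was lower. Hibadh and Tax1bp1, nearer the cluster on the side of Jazf1, were not called against CPN-/-. Jazf1, at a distance of 507 kb, was named after its values were seen. It encodes a zinc finger protein and had 112 and 70 counts in the 2 CPN-/- libraries, 246 and 232 with CRY1 and 12 and 14 with CRY2. Jazf1 was higher by 1.20 in CPN-/- CRY1 (adjusted p = 0.0052) and fell by 2.69 in CPN-/- CRY2 (adjusted p = 0.0021) in the edgeR test. The former call was lost without replicate 2 of CPN-/- CRY1 (adjusted p = 0.062).

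Genes that act with or on Hox genes were read from lists, with the median of all tested genes between −0.0076 and −0.0046 as the background. Of all tested genes, 24.3% were called in CPN-/- CRY1 against CPN-/-, 6.66% in CPN-/- CRY2 against CPN-/- and 16.3% between the CRY-expressing lines. All 9 PBX, MEIS and PKNOX partners were tested, and no call was made against CPN-/- by edgeR's test in either derived line. Meis3 was higher by 0.54 in CPN-/- CRY1 than in CPN-/- CRY2 (adjusted p = 0.019, edgeR), and this call was lost when any library of these lines was left out (0.12 to 0.20). Of the 12 genes of Polycomb repressive complex 2, which methylates histone H3, CPN-/- CRY1 had 3 lower than CPN-/- and 3 lower than CPN-/- CRY2, CPN-/- CRY2 had 1 lower than CPN-/-, and 0 were higher in these comparisons, beside 24.3%, 16.3% and 6.66% of all tested genes. Epop, an accessory subunit, had 4.90 and 4.87 CPM with CRY1 and 9.15 and 7.26 CPM with CRY2, against a lowest value of 13.6 CPM in CPN-/-, and was called in all 3 comparisons (adjusted p = 0.0012, 0.028 and 0.019, edgeR). The last 2 Epop calls were lost when any library of a CRY-expressing line was left out (0.055 to 0.25). Ezh1, a catalytic subunit, fell by 0.50 in CPN-/- CRY1 against CPN-/- (adjusted p = 0.019, edgeR) and by 0.67 against CPN-/- CRY2 (0.0085), and neither call passed when any library of a CRY-expressing line was left out (0.066 to 0.19).

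Of the 19 genes of Polycomb repressive complex 1, 4 were higher and 3 lower in CPN-/- CRY1 than in CPN-/-, 1 was lower in CPN-/- CRY2 than in CPN-/-, and between the CRY-expressing lines 3 were higher and 2 lower with CRY1, beside 24.3%, 6.66% and 16.3% of all tested genes. Pcgf5, a RING finger subunit, was higher in CPN-/- CRY1 by 0.95 against CPN-/- (adjusted p = 0.0014, edgeR) and by 1.20 against CPN-/- CRY2 (6.5e-04). With the medians of the chromosomes removed (Pcgf5 lies on chromosome 19, with medians of 0.31 and 0.46), these values were 0.64 and 0.72 and still passed (adjusted p = 0.0068 and 0.0055, edgeR). Cbx7, a chromodomain subunit encoded on chromosome 15, fell by 1.27 in CPN-/- CRY1 (adjusted p = 0.0019, edgeR) and by 0.82 in CPN-/- CRY2 (0.018) against CPN-/-, the latter lost when any library of a CRY-expressing line was left out (0.066 to 0.20). Pcgf6, another RING finger subunit, was higher by 0.59 in CPN-/- CRY1 than in CPN-/- CRY2 (adjusted p = 0.012, edgeR). Of the 13 trithorax and histone demethylase genes, Dpy30 fell by 0.76 in CPN-/- CRY1 against CPN-/- (adjusted p = 0.011, edgeR, but 0.11 and 0.090 without replicate 1 or 2 of CPN-/- CRY1, and a fall of 0.42 with length trends removed), and between the CRY-expressing lines Men1 was higher with CRY1 by 0.58 (0.0074). With chromosome medians removed, Pcgf6 differed by 0.11 and Men1 by 0.099, and neither passed (adjusted p = 0.59 and 0.57, edgeR). Both were also lost when any library of a CRY-expressing line was left out (0.081 to 0.15). The medians of the cofactor, Polycomb and trithorax lists against CPN-/- lay between −0.11 and 0.21.

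Retinoic acid is a known inducer of Hox genes, and 10 of the 18 listed genes of retinoic acid signalling and the CDX factors were tested. Crabp1, a retinoic acid binding protein, fell by 1.89 in CPN-/- CRY1 against CPN-/- (adjusted p = 0.0013, edgeR), and this was the only call of the list against CPN-/-. Crabp1 also fell by 1.89 against CPN-/- CRY2 (adjusted p = 0.0015, edgeR). Aldh1a1, which makes retinoic acid, was under 1 CPM in every library and higher by 1.27 in CPN-/- CRY1 against CPN-/- CRY2 (adjusted p = 0.046, edgeR), a call lost under DESeq2 (0.14), with chromosome medians removed (0.21) and when any library of these lines was left out (0.17 to 0.26).

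Of 33 other transcription factors that mark body position, 21 were tested. In CPN-/- CRY1, 9 were higher and 1 lower than in CPN-/-, while 6 were higher and 3 lower than in CPN-/- CRY2. In CPN-/- CRY2, 1 was higher and 2 were lower than in CPN-/-. These were 10, 9 and 3 calls among 21 genes, where 24.3%, 16.3% and 6.66% of all tested genes were called. Lhx2, a LIM-homeodomain factor, had 26 and 26 counts in the 2 CPN-/- libraries, 111 and 82 with CRY1 and 9 and 7 with CRY2. It rose by 1.67 in CPN-/- CRY1 (adjusted p = 0.0033, edgeR) and fell by 1.60 in CPN-/- CRY2 (0.034) against CPN-/-, with a difference of 3.26 between the CRY-expressing lines (6.5e-04). Both CPN-/- CRY2 libraries were under the filter's minimum for Lhx2, which was tested through the other lines. Its calls that involve CPN-/- CRY2 are therefore a description. The CPN-/- CRY2 call of Lhx2 was lost when any library of a CRY-expressing line was left out (adjusted p 0.076 to 0.25). Foxd1, a forkhead factor, had 17 and 11 counts for CPN-/-, none with CRY1 and 1 and 0 with CRY2, and was called lower in both lines (adjusted p = 0.0083 and 0.034, edgeR). Foxd1 was tested only because of its counts in CPN-/-, so these calls are a description. The former was lost without replicate 1 of CPN-/- CRY1 (0.054) and the latter with DESeq2 (0.070) and when any library of a CRY-expressing line was left out (0.051 to 0.20). Prrx2, a homeodomain factor of limb mesenchyme, fell by 0.62 in CPN-/- CRY1 against CPN-/- CRY2 (adjusted p = 0.046, edgeR), which was lost with chromosome medians removed (0.058) and when any library of these lines was left out (0.14 to 0.30).

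The summed level of the fibroblast markers was highest in CPN-/- CRY2. It was 11530 to 14550 CPM in CPN-/-, 14060 to 14350 in CPN-/- CRY1 and 17860 to 18320 in CPN-/- CRY2. Of the 11 tested markers, 1 was higher and 2 were lower in CPN-/- CRY1 than in CPN-/-, 1 was higher in CPN-/- CRY2 than in CPN-/-, and CPN-/- CRY1 had 3 below CPN-/- CRY2, beside 24.3%, 6.66% and 16.3% of all tested genes. Dcn, a proteoglycan of the connective tissue matrix, had 23 and 24 counts for CPN-/-, 6 and 1 with CRY1 and 61 and 59 with CRY2. It fell by 2.92 in CPN-/- CRY1 (adjusted p = 0.0090, edgeR) and was higher by 1.44 in CPN-/- CRY2 (0.039) against CPN-/-, and CPN-/- CRY1 was below CPN-/- CRY2 (adjusted p = 0.0013, edgeR). The first Dcn call was lost without replicate 2 of CPN-/- CRY1 (0.051) and was a fall of 4.48 without its replicate 1, and the call in CPN-/- CRY2 was lost without replicate 1 or 2 of that line (0.23 and 0.22) and with chromosome medians removed (0.052). Pdgfra, a growth factor receptor of mesenchymal cells, fell by 1.31 in CPN-/- CRY1 against CPN-/- (adjusted p = 0.0015, edgeR) and by 1.42 against CPN-/- CRY2 (0.0013). Of the other marker lists, Pecam1, an endothelial adhesion molecule, had 8 and 8 counts with CRY1 and 17 and 18 with CRY2 (adjusted p = 0.034, edgeR), a call lost with DESeq2 (0.16), with chromosome medians removed (0.060) and when any library of these lines was left out. Nanog, a pluripotency factor, had 18 and 17 counts for CPN-/- and 2 and 6 with CRY1 (adjusted p = 0.020, edgeR), a call lost without replicate 1 of CPN-/- CRY1 (0.12). Dcn, Pecam1 and Nanog were under the filter's minimum in both CPN-/- CRY1 libraries and were tested through other lines. Their calls that involve CPN-/- CRY1 are therefore a description. The part of these markers in the Hox differences was not tested.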

How the data were processed

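Stranded, paired-end mRNA-seq reads had been aligned to mm10 (RNA STAR) and assigned to genes (featureCounts) by the authors, who deposited whole counts without normalization. The annotation and strand setting of the counting are not given in the sources used here. Symbols and positions came from RefSeq (GRCm38.p6), matched by gene identifier, and 1904 of the 27179 identifiers had no entry. Transcript lengths came from GENCODE M21. Genes were kept by filterByExpr of edgeR 4.0.16 in R 4.3.3 (minimum count 10, minimum total 15), and 1 quasi-likelihood model with the line as its term, TMM factors and robust dispersions covered all 6 libraries. The tests were two-sided. The authors' methods used DESeq2 (here 1.42.0), which was an alternative together with other normalizations, filters, thresholds, a replicate term, removal of length trends and of chromosome medians, and each library left out in turn. A line left with 1 library was assumed to vary like the others. The members, gene lists and tests were chosen with earlier results of these data known. Named were all members except 1 that is not reported here, the 2 called genes of each list with the largest change, and the nearest tested neighbours. Steps were tested on simulated data.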

Additional observations from a re-analysis of the deposited data

How the results depend on the processing

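Over 49 called values of named genes and 860 alternatives, 0 changed sign, and 19 values passed under every alternative that tested them. Among the Hox genes these were Hoxc13 in CPN-/- CRY1 against CPN-/- and between the CRY-expressing lines, Hoxa10 in CPN-/- CRY2 against CPN-/- and between the CRY-expressing lines, and Hoxa7 and Hoxc6 between the CRY-expressing lines. The minimum of 10 counts in every library left out Hoxa7, Hoxa10 and Hoxc6, so these calls were not examined under it. For CPN-/- CRY1 against CPN-/-, the 4 called members became 2 at a minimum of 10 counts in every library, which left 5 members to test. They also became 2 in the fit of the 4 libraries of the comparison alone, at an adjusted p under 0.01 and with DESeq2's Wald test. The number did not rise when a library was left out. For CPN-/- CRY2 against CPN-/-, the 3 called members became 5 without a filter, 1 at a minimum of 10 counts in every library, in the fit of 4 libraries and at an adjusted p under 0.01, and 1 to 8 when a library was left out. For the CRY-expressing lines, the 5 called members became 1 at a minimum of 10 counts in every library, and their number did not rise when a library was left out. The share of all tested genes called under each alternative is not given here, so these numbers describe the members only. The fit without a filter also called Hoxa11 and Hoxc8 lower in CPN-/- CRY1 (adjusted p = 0.011 and 0.039, edgeR) and Hoxc9 lower in CPN-/- CRY2 (0.019). Apart from these constructions the causes were not tested.

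The numbers of detected Hox genes depended on the minimum level. At 0.2 CPM they were 12 in CPN-/-, 10 in CPN-/- CRY1 and 7 in CPN-/- CRY2, and at 5 CPM they were 2, 2 and 0. With each library alone they were 5 to 7, 6 to 7 and 2 to 4.

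The labels do not say whether libraries with the same replicate number were prepared together. Over all tested genes, the deviations of replicate 1 from replicate 2 had a correlation of 0.23 between CPN-/- and CPN-/- CRY2. It was −0.13 between CPN-/- and CPN-/- CRY1 and −0.09 between the CRY-expressing lines. These values cannot decide the question. With a term for the replicate number (replicate block), 2 members passed with CRY1 and 3 with CRY2 against CPN-/-, and 5 between the CRY-expressing lines.

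Values that changed sign did not pass in either fit. In CPN-/- CRY1 against CPN-/-, Hoxa2 was 0.045 with length trends removed and 0.027 with chromosome medians removed, and with a library left out Hoxa2 ranged from −0.38 to 0.32, Hoxa4 from −0.27 to 0.65 and Hoxa6 from −0.10 to 0.66. For CPN-/- CRY2 against CPN-/-, Hoxa6 was 0.048 with length trends removed, and with a library left out it ranged from −0.50 to 0.33 and Hoxa2 from −0.68 to 0.021. Between the CRY-expressing lines, Hoxa3 ranged from −0.13 to 0.60. Depth limits the 29 untested members.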
